A study of Mus musculus with 74 samples.

Results

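Gm13139 and Zfp808 are mouse KRAB zinc finger proteins (KRAB-ZFPs) whose ChIP-seq summits lay beside each other, but not on top of each other, at many of the same loci. Their peaks were taken from the deposited peak table by name: 169 peaks of Gm13139 and 544 of Zfp808, 713 in all of 53011 peaks of 67 KRAB-ZFPs with a labelled sample. The pair was chosen by its shared loci and by the distance between its summits, so those values are given as a description and are not tested. Both proteins were overexpressed in F9 EC cells, a mouse embryonal carcinoma line, and precipitated with the same HA antibody (ab9110) after formaldehyde crosslinking. Gm13139 carried an N-terminal tag (N-3XHA) and Zfp808 a C-terminal tag (C-3XHA), and the study's sample list gives a Sleeping Beauty transposon as the vector of Gm13139 and a pTRE-puromycin vector for Zfp808. Both samples were called against F9 input and an HA control ChIP at p under 1e-10 and enrichment over 20. The comparison samples were the other 28 F9 samples with an HA tag that were called against the same kind of controls. Of these, 17 were called at the thresholds of the pair and the rest at looser ones. There was 1 sample per protein, without replicates, so the intervals given cover counting error only, and tag position and vector cannot be told apart from the protein. Peak data hold no expression markers, so the labelled cell line was not checked.

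KRAB-ZFPs bind DNA through an array of zinc fingers, each of which contacts a few adjacent bases. The KRAB domain recruits KAP1, a scaffold for silencing factors that deposit H3K9me3. Many KRAB-ZFPs bind endogenous retroviruses, and a long array can read a long stretch of sequence in a given repeat family. F9 EC cells and ES cells resemble the early embryo, in which this kind of silencing is established.

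The sequences below recurred at or near the summits and are used as landmarks for all positions that follow. The reporter oligo is a 37-base sequence that the study designed for Gm13139 and named after RMER16-int, the internal part of an endogenous retrovirus. The Zfp808 site is the most frequent 12-base word of the Zfp808 windows, lengthened base by base while at least 75% of its windows kept it. The other Gm13139 site was derived in the same way from those Gm13139 windows that held neither of the first landmarks. All are written 5′ to 3′, the Zfp808 site on the strand on which it precedes the oligo.
Reporter oligo of Gm13139: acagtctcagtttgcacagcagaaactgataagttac
Zfp808 site: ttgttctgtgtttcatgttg
Other Gm13139 site: atgattagcataccttgg
A match was counted with up to 8 mismatches to the oligo, up to 2 mismatches to the 20-base Zfp808 site and up to 1 mismatch to the 18-base other site, without gaps and on either strand. The sites were found in the same windows they describe, so how often they occur there is a description.

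The most strongly bound shared locus with both landmarks shows the arrangement. It lay at chr4:16790904-16791088 (mm9, forward strand), between genes, with the nearest annotated transcript start, of a U6 gene, 2104 bp from the Gm13139 summit. Capitals mark the Zfp808 site first and the oligo match second, and the summit of Zfp808 was at base 16 and that of Gm13139 at base 142 of this stretch.
Bound by both: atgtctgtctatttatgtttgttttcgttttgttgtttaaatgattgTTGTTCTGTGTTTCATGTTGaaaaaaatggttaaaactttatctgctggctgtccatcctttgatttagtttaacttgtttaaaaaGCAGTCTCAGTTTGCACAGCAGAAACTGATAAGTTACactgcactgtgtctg
Here Gm13139 reached 100.5-fold enrichment with 168 tags and Zfp808 82.6-fold with 480 tags. The Gm13139 summit fell inside the oligo match, whereas the Zfp808 summit lay upstream of both capitalised sites.

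A summit of Zfp808 lay within 300 bp of 96 of the 169 Gm13139 summits, 56.8% of the Gm13139 peaks (95% Wilson interval 49.3 to 64.0%). These were 96 of the 544 Zfp808 peaks, 17.6% (14.7 to 21.1%). All 96 pairs were each other's nearest summits. The distance was narrowly set: the median was 137.5 bp, with quartiles of 123 and 157 bp and a range of 27 to 236 bp. No pair lay within 25 bp, 2 lay within 50 bp, and 83 of the 96 were more than 100 and at most 200 bp apart. Beyond 300 bp the 2 sets were nearly separate, as only 5 further Gm13139 summits had a Zfp808 summit within 10 kb.

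The spacing also sets how many loci count as shared. When 200 bp windows that overlapped by at least 25%, which is a summit distance of up to 150 bp, were counted as shared, there were 57 shared loci, with a median distance of 128 bp and a farthest pair of 149 bp. The closest pair left out lay 151 bp apart, and 39 of the 96 pairs lay between 151 and 236 bp. The threshold thus passed through the middle of a single group of distances rather than between close and distant pairs, as the plot of distances shows.

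**Figure D1:**
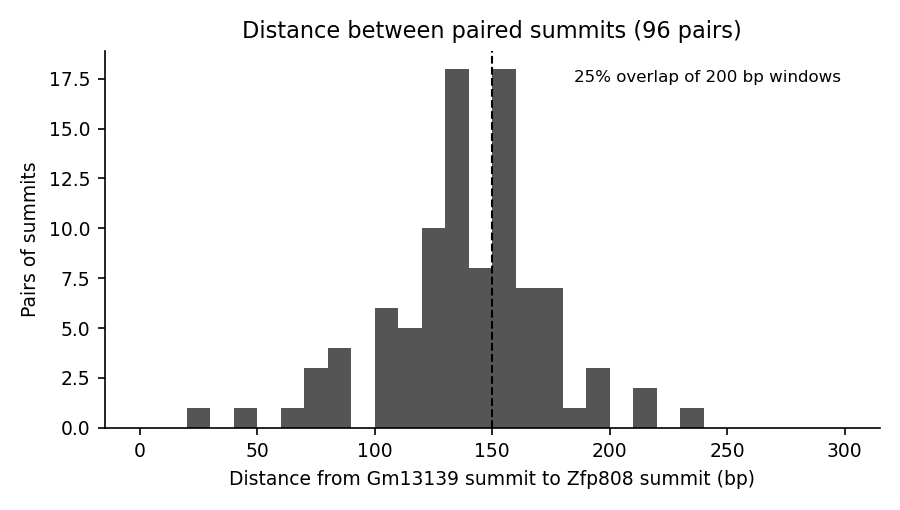
Number of summit pairs (y axis) by the distance in bp between a Gm13139 summit and its nearest Zfp808 summit (x axis) for the 96 pairs within 300 bp, with a dashed line at 150 bp, the distance at which 200 bp windows overlap by 25%. Of these pairs, 57 lay at or below the line and 39 above it, and none lay within 25 bp.

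The order of the summits was the same at every pair. The oligo was found within 300 bp of the Gm13139 summit at all 96 pairs, and read along the oligo the Zfp808 summit was upstream of the Gm13139 summit in 96 of 96, by a median of 137.5 bp (95% interval of the median 133 to 151 bp). The oligo lay on the forward strand of the chromosome at 71 of 143 Gm13139 peaks with an oligo match and on the reverse strand at 72, so the constant order was relative to the sequence and not to the chromosome. The offset changed little with peak height. With upstream positions written as negative, the median was -135.5, -146 and -140 bp in the 32 pairs each with the lowest, middle and highest Gm13139 fold, and -147, -137.5 and -134 bp in the same split by Zfp808 fold, with overlapping intervals.

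Gm13139 summits were centred on the oligo. The oligo was found within 300 bp of 143 of the 169 Gm13139 summits (84.6%, Wilson interval 78.4 to 89.3%), and these lay at a median of 1 bp from its centre, with quartiles of -5 and 14.5 bp. The 47 Gm13139 summits with the oligo but without a Zfp808 partner had the same median of 1 bp. Of the Zfp808 summits, 209 of 544 (38.4%, 34.4 to 42.6%) had the oligo within 300 bp, and they lay upstream of its centre at a median of -137 bp, with quartiles of -148 and -117 bp. The position did not depend on a Gm13139 call, with a median of -137.5 bp at the 96 Zfp808 peaks with a Gm13139 partner and -137 bp at the 113 without. All 209 lay upstream, between -216 and -29 bp.

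**Figure D2:**
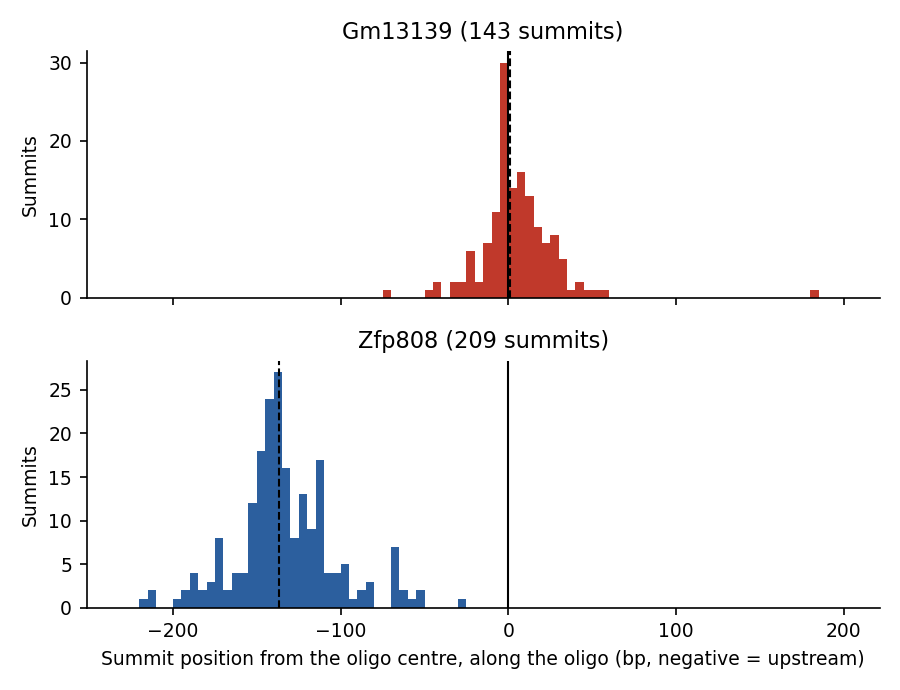
Histograms of summit positions in bp (x axis, 5 bp bins, negative values upstream) from the centre of the oligo match and along its strand, for 143 Gm13139 summits (upper panel) and 209 Zfp808 summits (lower panel); the solid line marks the oligo centre and the dashed line the median. Gm13139 summits gather at the centre with a median of 1 bp, and Zfp808 summits lie upstream with a median of -137 bp.

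The called peaks, before they were cut to 200 bp, differed in width. Zfp808 peaks had a median called width of 1263 bp (619 to 2425 bp) and Gm13139 peaks of 318 bp (67 to 728 bp). The Gm13139 summit therefore lay inside the called Zfp808 peak at all 96 pairs, and the Zfp808 summit inside the called Gm13139 peak at 71 of 96. The centres of the called peaks kept the order of the summits at the median, with a wider spread for Zfp808. The centre of the Gm13139 peak lay at a median of 8 bp from the oligo centre, downstream of it, and that of the Zfp808 peak at -161.5 bp, with a range of -552 to 234.5 bp.

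Zfp808 summits had a landmark of their own. The Zfp808 site lay within 300 bp of 408 of its 544 summits (75%, 71.2 to 78.5%), and the summit was upstream of the site's centre at a median of -52 bp, with quartiles of -63 and -41.75 bp. When the site was derived anew from the 338 Zfp808 peaks on odd-numbered chromosomes, X and Y, it was found in 143 of the 206 peaks on the even-numbered chromosomes that had played no part in it (69.4%). Most Zfp808 windows lay in repeated sequence, and its copies are related by descent. This split thus cannot show that Zfp808 recognises the site. In that derivation it read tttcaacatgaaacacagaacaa, which is the opposite strand and slightly longer. Where a Zfp808 peak had both landmarks, both were on the same strand in 189 of 189 peaks, and the oligo centre followed the centre of the Zfp808 site by a median of 93 bp (quartiles 88 and 96 bp). In Gm13139 peaks, both were on the same strand in 116 of 116 with a median spacing of 95 bp.

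The sequence around the Zfp808 site was alike with and without the oligo. The lines below give the most frequent base from 70 bases upstream to 20 bases downstream of the site's centre, with capitals where at least 70% of the peaks had that base.
Zfp808 peaks with both sites: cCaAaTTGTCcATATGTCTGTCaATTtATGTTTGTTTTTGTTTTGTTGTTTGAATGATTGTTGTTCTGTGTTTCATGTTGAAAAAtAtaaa
Zfp808 peaks with the Zfp808 site only: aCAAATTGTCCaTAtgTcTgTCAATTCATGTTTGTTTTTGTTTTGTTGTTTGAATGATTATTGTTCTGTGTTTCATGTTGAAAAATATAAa
The most frequent base reached 70% at 80 of these 91 positions in the 189 peaks with both sites and at 84 in the 219 peaks with the Zfp808 site only. These positions include the 20 bases of the site itself, which were high in both sets because the peaks were selected by them. In the next 100 bases downstream, where the oligo lies, it did so at 1 and 16 positions, and in the 50 bases further upstream at 4 and 13. The bases were stacked without gaps from the site's centre, so differences in spacing lower these shares with distance. In the 189 peaks, all with an oligo match, the oligo centre lay 40 to 102 bp downstream of the site's centre. The low shares there thus do not show that the peaks differed in that stretch. The median Zfp808 summit, at -52 bp from the site's centre, lay within the stretch with high shares.

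Single words gave the same picture with no alignment. The most frequent 12-base word of the Gm13139 windows, aaactgataagt, was in 96 of 169 (56.8%), and is part of the oligo. In the Zfp808 windows catgaaacacag was in 296 of 544 (54.4%), and the word ttggtgcaccaa, which reads the same on both strands, in 274 (50.4%). Neither these words nor the next most frequent one of either sample, ccagcagataaa in Gm13139 and gtccctttgaga in Zfp808, occurred in any window 1 kb to either side.

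The landmarks divided the peaks of Zfp808 by whether Gm13139 was called. Of 544 Zfp808 peaks, 189 had both sites, 219 the Zfp808 site only, 20 the oligo only and 116 neither. A Gm13139 summit lay within 300 bp of 86 of the 189 with both sites (45.5%, 38.6 to 52.6%) and of 10 of the 20 with the oligo only. It lay near none of the 219 with the Zfp808 site only (Wilson interval 0 to 1.72%) and near none of the 116 with neither (0 to 3.21%), against 17.6% of all Zfp808 peaks. Of the 169 Gm13139 peaks, 116 had both sites, 27 the oligo only, none the Zfp808 site only and 26 neither. A Zfp808 summit lay near 86 of the 116 (74.1%, 65.5 to 81.2%), 10 of the 27 (37%, 21.5 to 55.8%) and none of the 26 (0 to 12.9%).

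Many Zfp808 peaks without the oligo carried the same element in a shorter or altered form. The upstream word tttaacttgttt and the downstream word gctgggagtcaa, which flank the oligo, were both found, with up to 2 mismatches each, downstream of the Zfp808 site in 141 of 189 peaks with the oligo and in 142 of 219 without. With the oligo, 51 to 54 bases separated the words in 119 peaks, of which 65 had a Gm13139 summit, and 45 to 48 bases in 17, of which 2 had one. Without the oligo, the words were 51 to 54 bases apart in 68 peaks, 45 to 48 in 37 and only 19 or 20 in 33. None of these had a Gm13139 summit, which already held for all 219 peaks, against 17.6% of all Zfp808 peaks with one. With the oligo, the median Zfp808 fold was 56.8 at 51 to 54 bases and 65.05 at 45 to 48. Without it, the median was 69.2 at 51 to 54 bases, 61.7 at 45 to 48 and 79.3 at 19 or 20, so fold did not follow the length of the stretch. The ranges of bases were set after the spacings were seen. The highest Zfp808 peak of each form, with the oligo once with and once without a Gm13139 summit, is shown with the flanking words in capitals.
Full length, with Gm13139, chr16:84670293-84670368 forward: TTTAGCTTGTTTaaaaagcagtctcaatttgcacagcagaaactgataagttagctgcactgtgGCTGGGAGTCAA
Full length, no Gm13139, chr2:11857965-11858040 reverse: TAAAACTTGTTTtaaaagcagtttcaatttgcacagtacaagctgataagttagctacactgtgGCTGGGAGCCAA
Oligo over 8 mismatches, chr1:8880667-8880743 forward: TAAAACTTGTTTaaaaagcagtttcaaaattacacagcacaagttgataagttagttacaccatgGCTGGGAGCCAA
Shorter by a few bases, with Gm13139, chr7:58650652-58650723 reverse: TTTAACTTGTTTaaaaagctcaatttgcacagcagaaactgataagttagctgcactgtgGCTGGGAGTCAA
Shorter by a few bases, no Gm13139, chr10:66152534-66152602 forward: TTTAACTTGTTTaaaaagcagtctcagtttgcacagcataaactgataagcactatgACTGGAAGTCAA
Shorter by a few bases, oligo over 8 mismatches, chr4:74174840-74174910 reverse: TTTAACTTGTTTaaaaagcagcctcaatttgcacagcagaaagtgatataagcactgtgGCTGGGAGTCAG
Shortest, chr6:124568044-124568086 reverse: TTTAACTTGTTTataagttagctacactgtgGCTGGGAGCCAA
Zfp808 reached 96.9-fold at the first of these, 102.5-fold at the second, 103.9-fold at the third, 65.05-fold at the fourth, 91.3-fold at the fifth, 87.6-fold at the sixth and 105.2-fold at the last. In the shortest form, most of the stretch that matches the oligo was missing between the flanking words, while the Zfp808 site upstream was present. A gapless count of mismatches takes such a gap as many mismatches, so the last 2 loci had 10 and 15 mismatches to the oligo.

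Gm13139 calls followed the match to the oligo, whereas Zfp808 fold showed no such steady fall. The measures are unlike: the loci compared were all called Zfp808 peaks, so for Zfp808 only the fold, over 20 by the threshold, could vary. Among Zfp808 peaks, a Gm13139 summit was within 300 bp of 19 of 20 with 0 to 2 mismatches to the oligo (95%, 76.4 to 99.1%), 32 of 36 with 3 (88.9%), 26 of 52 with 4 (50%), 14 of 50 with 5 or 6 (28%), 5 of 51 with 7 or 8 (9.80%), none of 72 with 9 to 11 (0 to 5.07%) and none of 263 with 12 or more (0 to 1.44%). The median Zfp808 fold in these groups was 47.8, 48.7, 51.3, 50.6, 66.4, 63.1 and 45.5, so the last group had the lowest fold and the 2 before it the highest. The oligo was designed by the study for Gm13139, so the fall of Gm13139 calls describes how closely its peaks share that sequence.

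The same held when the whole genome was searched. The oligo had 379 copies with up to 8 mismatches in mm9, of which 143 had a Gm13139 summit within 300 bp (37.7%, 33.0 to 42.7%) and 209 a Zfp808 summit (55.1%, 50.1 to 60.1%). Both were called at 96 copies, Gm13139 alone at 47, Zfp808 alone at 113 and neither at 123. Gm13139 was called at 30 of 33 copies with 0 to 2 mismatches (90.9%), 43 of 53 with 3 (81.1%), 34 of 80 with 4 (42.5%), 29 of 137 with 5 or 6 (21.2%), 7 of 76 with 7 or 8 (9.21%) and none of 134 with 9 or 10 (0 to 2.79%). Zfp808 was called at 60.6%, 67.9%, 65.0%, 36.5%, 67.1% and 41.0% of the same groups. The Zfp808 share was lower at 5 or 6 mismatches than on either side, and the intervals of that group and its neighbours did not overlap.

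**Figure D3:**
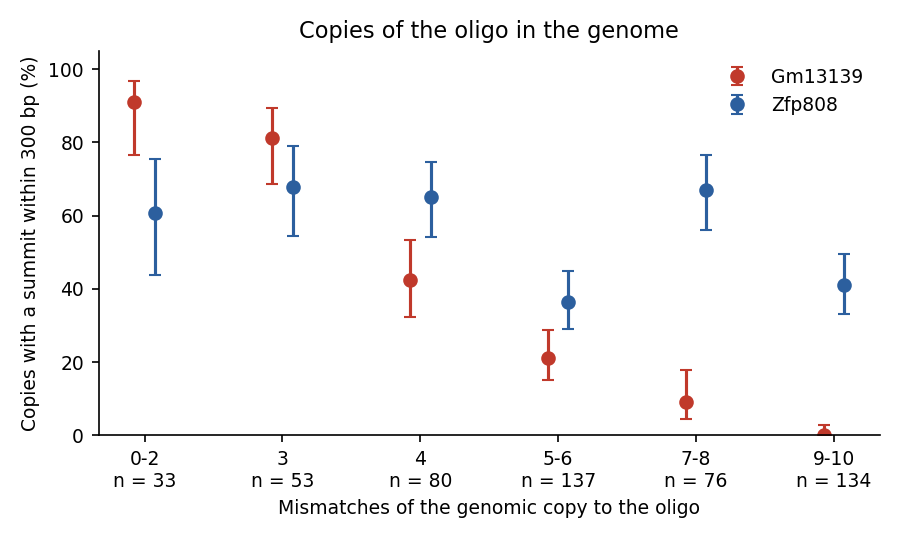
Percent of genomic copies of the oligo with a summit within 300 bp (y axis) by mismatches to the oligo (x axis, with the number of copies), for Gm13139 and Zfp808; points are shares and bars 95% Wilson intervals, which cover counting error only. Gm13139 falls from 90.9% at 0 to 2 mismatches to 0 at 9 or 10, and Zfp808 stays between 36.5% and 67.9%.

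Split by the presence of the Zfp808 site, the same copies differed in Zfp808 calls. The site was derived from the Zfp808 windows, so a higher share of Zfp808 calls beside it is partly built in and is a description. Of the 315 oligo copies with a Zfp808 site on their strand within 300 bp, 189 had a Zfp808 summit (60.0%, 54.5 to 65.3%), against 20 of the 64 copies without it (31.3%, 21.2 to 43.4%). Gm13139 summits were at 116 of the 315 (36.8%, 31.7 to 42.3%) and at 27 of the 64 (42.2%, 30.9 to 54.4%), with overlapping intervals. The Zfp808 site itself had 996 copies in the genome, of which 408 had a Zfp808 summit (41.0%, 37.9 to 44.0%). Of these, 314 had the oligo nearby and 682 did not. Zfp808 was called at 189 of the 314 (60.2%, 54.7 to 65.5%) and at 219 of the 682 (32.1%, 28.7 to 35.7%). Gm13139 was called at 116 of the 314 and at none of the 682 (0 to 0.560%).

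Copies with a Zfp808 summit differed at a few bases between those with and without Gm13139. The 96 with a Gm13139 summit had a median of 3 mismatches (1 to 8) to the oligo and the 113 without a median of 6 (2 to 8). Positions are counted from 1 at the oligo's 5′ end, and each change gives the oligo's base first and the genomic base last. Position 22 differed from the oligo in 9.38% of copies with Gm13139 and in 49.6% of those without, most often by G22C, found in 28 of the 113. Position 26 differed in 8.33% and 34.5%, with C26T in 25 of the 113. Position 30 differed in 2.08% and 25.7%, with T30C in 28, and position 25 in 1.04% and 23.0%, with A25G in 20. The outermost base, position 37, differed in 45.8% and 69.9%. Position 1 differed in 95.8% and 94.7%, almost always by A1G, and position 10 in 74.0% and 69.9%, most often by G10A, so these differences from the oligo were about as common with Gm13139 as without. Copies of the element are related by descent, so the positions are not independent of each other and no test was made.

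**Figure D4:**
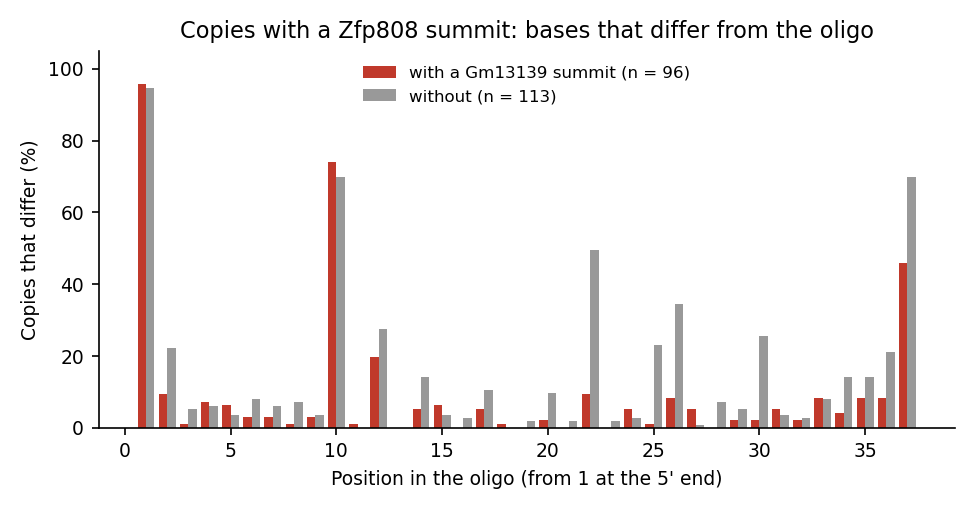
Percent of copies that differ from the oligo (y axis) at each of its 37 positions (x axis, from 1 at the 5′ end) among copies with a Zfp808 summit, for 96 copies with a Gm13139 summit and 113 without. The bars are about equal at positions 1 and 10, and at position 22 they reach 9.38% and 49.6%.

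The aligned stretches of the highest loci show these bases. The lines give the 37 bases opposite the oligo, read along the oligo, with capitals where a base differs from it.
Both proteins, chr4:16791037-16791073 forward: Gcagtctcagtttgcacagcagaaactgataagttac
Both proteins, chr6:60502571-60502607 reverse: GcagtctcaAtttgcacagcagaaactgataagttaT
Both proteins, chr17:17123045-17123081 reverse: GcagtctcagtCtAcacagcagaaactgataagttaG
Both proteins, chr16:84670310-84670346 forward: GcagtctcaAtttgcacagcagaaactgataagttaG
Both proteins, chr4:95948244-95948280 forward: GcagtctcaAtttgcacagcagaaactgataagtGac
Zfp808 alone, chr2:11857987-11858023 reverse: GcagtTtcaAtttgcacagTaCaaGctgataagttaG
Zfp808 alone, chr4:122343359-122343395 reverse: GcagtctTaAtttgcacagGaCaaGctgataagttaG
Zfp808 alone, chr7:4528095-4528131 forward: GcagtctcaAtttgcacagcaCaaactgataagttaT
Zfp808 alone, chr1:9417865-9417901 reverse: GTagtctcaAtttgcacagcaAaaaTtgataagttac
Zfp808 alone, chr2:174981285-174981321 reverse: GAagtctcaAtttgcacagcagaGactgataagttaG
Gm13139 alone, chr11:30397271-30397307 forward: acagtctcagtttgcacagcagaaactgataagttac
Gm13139 alone, chr4:15111182-15111218 reverse: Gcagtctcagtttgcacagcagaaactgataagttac
Gm13139 alone, chr14:16805360-16805396 reverse: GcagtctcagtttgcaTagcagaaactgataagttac
The loci shown for both proteins had 1 to 4 mismatches, those for Gm13139 alone 0 to 2 and those for Zfp808 alone 4 to 7. Not shown for Gm13139 alone were the next loci by fold, chr9:36331772-36331808 with 2 mismatches and chr6:121638534-121638570 with 3. The latter had the same 37 bases as the line at chr6:60502571-60502607 for both proteins, so the groups overlap in their match. The loci were taken by fold, without regard to their mismatches within the limit of 8.

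Enrichment at these loci was high for both proteins. At the 5 shared loci with the highest smaller fold, Gm13139 reached 100.5-fold (168 tags) and Zfp808 82.6-fold (480 tags) at chr4:16790945-16791144. The values were 86.2-fold (152 tags) and 72.4-fold (414 tags) at chr6:60502492-60502691, 148900 bp from the start of A530053G22Rik. At chr17:17122943-17123142, 34540 bp from BC002059, they were 71.5-fold (142 tags) and 82.6-fold (394 tags). All of these windows lay between genes, as did the other shared loci of the 5: chr16:84670219-84670418, 42949 bp from the start of the microRNA gene Mir155, with 68.2-fold (94 tags) and 96.9-fold (578 tags), and chr4:95948167-95948366, 7306 bp from Gm12658, with 97.9-fold (212 tags) and 68.2-fold (431 tags). Their summits were 122 to 134 bp apart.

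Outside shared loci, the Gm13139 peaks with the highest fold were also between genes and had 0 to 3 mismatches to the oligo. The highest, with 137.7-fold and 271 tags, lay at chr11:30397220-30397419, 25493 bp from 4930505A04Rik, matched the oligo without a mismatch and had 7 mismatches at best to the Zfp808 site. The others were 29661 bp from Gm11845 (125.7-fold), 270476 bp from Oxsm (116.7-fold), 17736 bp from Gm5615 (104.1-fold) and 52365 bp from A2m (95.1-fold). No Zfp808 summit lay within 300 bp of any of these 5. The 5 highest Zfp808 peaks outside shared loci had 7 to 15 mismatches to the oligo and at most 1 to the Zfp808 site, and none had a Gm13139 summit within 300 bp. They lay in an intron of C1s, a serine protease of the complement cascade (105.2-fold, 720 tags), in an intron of Sntg1, which encodes a syntrophin (103.9-fold, 663 tags), and between genes 5111 bp from Gm11889 (103.9-fold, 638 tags), 147489 bp from Gm13310 (102.5-fold, 728 tags) and 41044 bp from AC122313.2 (100.9-fold, 644 tags).

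Neither protein had a peak in its own gene. Gm13139 lies at chr4:146506147-146554688 and Zfp808 at chr13:62231276-62274779. In the chromosome 4 cluster of KRAB-ZFP genes that holds Gm13139, taken as chr4:145458697-147222475, each protein had 2 peaks, and they formed 2 pairs. At the first, 2069 bp from the start of Gm13241, Gm13139 had 21.04-fold enrichment (60 tags) and Zfp808 43.9-fold (790 tags) with summits 123 bp apart. At the second, in an intron of Gm16889 and Gm17317, Gm13139 had 22.1-fold (72 tags) and Zfp808 51.8-fold (810 tags) with summits 190 bp apart. Within the Zfp808 gene and 1 Mb to either side, Zfp808 had 5 peaks and Gm13139 had 2. The chromosome 13 cluster that holds Zfp808 was taken as chr13:62231276-62568128, which is narrower than either chromosome 13 cluster in the paper. In that stretch Zfp808 had no peak and Gm13139 had 1, at 40.2-fold (40 tags).

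That peak belonged to the Gm13139 peaks without the oligo. These were 26, with lower values than the others: a median of 31.5 tags and 27.4-fold, against 67 tags and 46.7-fold in the 143 with the oligo. The other Gm13139 site was within 300 bp of 16 of the 26 summits (61.5%, 42.5 to 77.6%), and none of the 26 had a Zfp808 partner. It was within 300 bp of no Zfp808 summit (0 of 544, Wilson interval 0 to 0.701%). The highest of the 16 is shown with the site in capitals; the Gm13139 summit was at base 50.
Other site, chr13:62491703-62491800 reverse: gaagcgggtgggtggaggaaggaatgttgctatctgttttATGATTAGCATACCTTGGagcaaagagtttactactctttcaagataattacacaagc
The site had 884 copies in the genome with up to 1 mismatch, of which these 16 had a Gm13139 summit (1.81%, 1.12 to 2.92%).

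The 116 Zfp808 peaks with neither site were also the lower ones, with a median of 172.5 tags and 30.2-fold, against 395 tags and 64.2-fold in the 219 with the Zfp808 site only and 306 tags and 55.8-fold in the 189 with both. Their sequence was less repeated: 57.8% of their windows were in multi-copy sequence, against 89.0% and 88.4%. Among the peaks with the oligo, Zfp808 had 52.7-fold at the median with a Gm13139 partner and 57.4-fold without, and Gm13139 had 47.2-fold with a Zfp808 partner and 43.1-fold without, with overlapping quartiles in both cases. Over the 96 pairs the folds of the proteins were weakly related (Spearman's rho 0.23), a correlation across loci of the same 2 libraries that share base composition and mappability.

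Hardly any other KRAB-ZFP with an HA tag had summits at these loci. Of the 28, 26 had no summit within 1 kb of any Gm13139 peak and 24 none within 1 kb of any Zfp808 peak. Zkscan17, which has a SCAN domain beside its KRAB domain, had summits within 1 kb of 6 Gm13139 and 23 Zfp808 peaks. It had 1107 peaks in all, with a median of 9 tags, called at the looser thresholds of p under 1e-05 and enrichment over 10. The others were Zfp429 at 1 Gm13139 peak, and Zfp709 at 4, Zfp58 at 2 and Zfp493 at 1 Zfp808 peak. The 23 Zkscan17 summits lay a median of 30 bp from the Zfp808 summits. Along the oligo, at the 5 loci where it was near Gm13139, Zkscan17 lay upstream of the Gm13139 summit at a median of -207 bp (-279 to -120 bp). Of the 28, only Zkscan17 had any peak with the oligo within 300 bp, 9 peaks, and the Zfp808 site was near peaks of 2 of the 28, 22 of them in Zkscan17.

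Zfp808 stood apart from the other HA samples in how much its peaks held. The tags in its peaks summed to 183824, the most of the 30 samples, against at most 82026 in the other 28, and its median of 305.5 tags per peak compared with at most 102. Its median width of 1263 bp compared with 150 to 453 bp. The sum over Gm13139 peaks was 12780 tags and its median 57 tags, inside the range of the others. The tables hold no library depth, so the part of depth in the number of Zfp808 peaks was not tested, and a locus without a peak does not show absent binding.

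The properties below were not themselves used to choose the pair, but many remaining loci carry the same element, so they are not independent of the choice. They were compared with the 28 samples by a two-sided exact permutation test over samples, with adjustment over 6 properties. The 57 shared loci were left out, and the 39 pairs at 151 to 236 bp stayed in. With 435 splits the smallest possible p is 0.00230. Both proteins bound between genes more often than any of the 28: 80.4% of Gm13139 and 83.2% of Zfp808 summits, against a mean of 53.5% ± 6.88 (SD, n = 28) and a range of 42.3 to 67.2% (exact permutation p = 0.00230, adjusted p = 0.0138). Their windows were more often in multi-copy sequence, defined by a median of at least 2 exact genomic copies of each 24 bases: 67.0% and 80.7% against 18.4% ± 15.9 (SD, n = 28; exact permutation adjusted p = 0.0138). Of the 28, 27 lay below both, and Rex2 with 77.6% lay between them. When multi-copy was counted from 10 copies, the shares were 25.9% and 49.7% against 10.5% ± 16.8 (SD, n = 28), Rex2 lay above both, and the difference no longer passed (exact permutation adjusted p = 0.114). The median GC content of the windows was 41.3% and 35.0% against 47.0% ± 3.99 (SD, n = 28; exact permutation adjusted p = 0.0184). Zfp808 lay below all of the 28. Gm13139 lay inside their range of 38.5 to 55.0%, above AW146154 (38.5%), Zkscan17 (39.0%) and Zfp600 (40.5%). With every peak within 300 bp of the other's summit left out, the values were 78.1% and 83.0% between genes (exact permutation adjusted p = 0.0138). They were 56.2% and 80.8% in multi-copy sequence (exact permutation adjusted p = 0.0138) and 41.5% and 35.0% GC (exact permutation adjusted p = 0.0184). The pair shares a sequence element, so its 2 values are not independent of each other. The p-values set 2 single libraries of different proteins against 28 and do not cover variation between replicates. With either protein left out the smallest possible p is 0.0345, and no adjusted p was then under 0.05. With score at least 200 and fold at least 40, which left 18 other samples, the differences in GC, multi-copy windows and summits between genes kept their direction but did not pass (exact permutation adjusted p = 0.111 each).

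The called width differed on average (adjusted exact permutation p = 0.0414), but this rested on Zfp808: Gm13139 alone had 302 bp outside the shared loci against 297.4 bp ± 81.0 (SD, n = 28). Summits within 1 kb of a transcript start made up 1.79% and 3.70%, against 10.8% ± 9.95 (SD, n = 28; exact permutation adjusted p = 0.163), a difference that did not pass. Peaks with another peak of the same sample within 10 kb made up 2.68% and 0.821% against 2.38% ± 4.45 (SD, n = 28; exact permutation adjusted p = 0.766). Over all peaks, 141 Gm13139 summits were between genes, 27 in introns and 1 in an exon, and 456, 87 and 1 for Zfp808. The summits were thus almost all outside exons for both proteins.

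**Figure D5:**
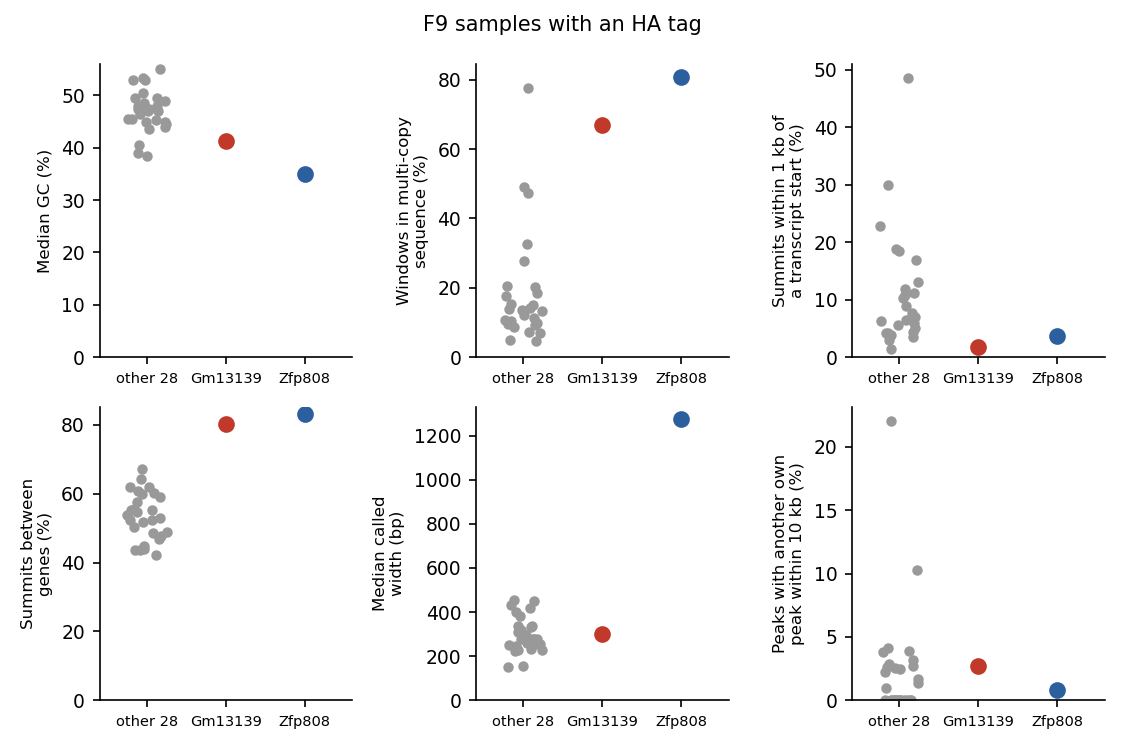
The 6 properties compared (y axes, in percent or bp) for the other 28 F9 samples with an HA tag (grey points, jittered sideways), Gm13139 and Zfp808, each point 1 sample and without the loci shared by the pair. Summits between genes reach 80.4% and 83.2% above a highest value of 67.2% among the 28, and the median width of Zfp808 stands at 1274 bp.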

How the data were processed

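Per the labels and the study's methods, the authors mapped reads to mm9 with Bowtie, assigned multi-mapping reads to a random best position, called peaks per sample with MACS 1.4.2 and deposited 200 bp windows around summits. A read's random placement can lower a peak in a repeat or leave it uncalled. The authors deposited for each peak a raw count of tags, a score (a scaled −log10 p-value), a fold enrichment (a ratio) and a false discovery rate (a percent). No row gives library depth. Summits were taken as window centres, which may be off by 1 bp because the table does not state its first coordinate. The members and lists were chosen with earlier results of these data known. Genes were from gencode vM1 on NCBIM37 (mm9). 1 name with 244 peaks matched no label and was left out. Python 3.11.15 with numpy 2.4.6, scipy 1.17.1, pysam 0.24.0 and samtools 1.23.1 was used. The site search, the offset and the permutation test were tested on simulated data. Shares have 95% Wilson intervals, which cover counting error only. Exact permutation tests over samples were adjusted by Benjamini-Hochberg. Named loci were the 5 shared loci with the highest smaller fold, the 5 highest peaks of each protein outside shared loci, and peaks in the genes or clusters of both; of the other KRAB-ZFPs, the HA samples with most summits within 1 kb were named. The mismatch limits of the derived sites and the spacing ranges were set after the data were seen. Alternatives covered the overlap, mismatches, distances, peak thresholds, samples and tags. Repeat annotation and zinc finger sequences were not analysed here.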

Additional observations from a re-analysis of the deposited data

How the results depend on the processing

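The number of shared loci depends on the overlap: 57 at 25%, 10 at 50%, 93 with any overlap, 96 with summits within 500 bp and 25 with score at least 200 and fold at least 40; the median distance was 76 bp at 50% overlap, 137 bp with any overlap and 137.5 bp within 500 bp. Copies of the oligo with a summit fell to 81 (Gm13139) and 138 (Zfp808) with score at least 200 and fold at least 40, and to 135 for Zfp808 at up to 5 mismatches, which leaves 209 copies. Of the 6 properties, with score at least 200 and fold at least 40, which leaves 18 other samples, the differences were -10.7 percentage points in GC, 52.3 in multi-copy windows, 38.6 in summits between genes and 445.0 bp in width, each with an adjusted exact permutation p of 0.111. By exact permutation, the width difference was 462.4 bp (adjusted p = 0.0877) among samples at p under 1e-10 and enrichment over 20, and 474.4 bp (adjusted p = 0.0621) with all peaks within 300 bp of the other's summit left out, an alternative added after seeing the data; the difference in multi-copy windows was 27.3 (adjusted p = 0.114) from 10 copies, where that of the width, by adjustment alone, was 0.0552. Without either member, a single sample stands against 28 and the smallest p is 0.0345: without Gm13139 or Zfp808 the differences were -12.0 and -5.75 in GC, 62.3 and 48.6 in multi-copy windows, 29.7 and 26.9 in summits between genes, 976.6 and 4.61 bp in width, and -1.56 and 0.300 in peaks with an own peak nearby, which reversed. With 1 sample against 28 there are so few splits that no call was read from these comparisons. By size, the width difference almost vanished without Zfp808 and that in GC shrank, while those in multi-copy windows and summits between genes changed less. No paired analysis was possible because each protein had 1 sample. The cause of these changes was not tested, except that fewer samples raise the smallest p.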

Other observations

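Gm13251 and Gm13247, KRAB-ZFPs with a FLAG tag called against a FLAG control and chosen here after their values were seen, also had summits at these loci. Gm13251, with 3300 peaks in all, lay within 300 bp of 17 of the 169 Gm13139 and 12 of the 544 Zfp808 summits. Gm13247, with 277 peaks in all, lay within 300 bp of 5 and 18. These are a small part of the peaks of either member. Of the other FLAG samples, Gm13157 lay within 1 kb of 29 Zfp808 summits, but within 300 bp of 1, and Zfp961 lay within 1 kb of 6 Gm13139 and 20 Zfp808 summits, but within 300 bp of none. Read along the oligo, with upstream positions negative, Gm13251 lay at a median of -5 bp from the Gm13139 summit (17 loci, quartiles -12 and 6 bp) and 134.5 bp from the Zfp808 summit (10 loci). Gm13247 lay at a median of -157 bp from the Gm13139 summit (5 loci) and -37 bp from the Zfp808 summit (8 loci). At these few loci, Gm13251 thus lay on the Gm13139 side of the element and Gm13247 on the Zfp808 side. The samples differ from the pair in tag, antibody and control, Gm13247 was also called at looser thresholds than the pair, and the difference was not tested.

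Rex2 had 49 of its 67 peaks near a sequence with up to 4 mismatches to the Zfp808 site, but none with up to 2. Of the 28 HA samples, 16 had some peak near such a sequence at up to 4 mismatches, and Rex2 had the most. As 77.6% of Rex2 windows were in sequence with at least 10 copies, its peaks are not independent counts. Whether Rex2 binds that sequence was not tested.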
